A study of Mus musculus with 2 samples.

Results

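Genes of neutrophil granules and of calgranulin were followed through single cells of a mouse brain tumour, 10 of the 31053 genes measured. They were chosen by name: S100a8, S100a9, Ngp, Camp, Ltf, Lcn2, Retnlg, Wfdc21, Mmp8 and Mmp9. The samples were 2 droplet libraries, replicates 1 and 2, of 1 group: C57BL/6 mice with a brain tumour of mIDH1 (mutant IDH1) cells, taken at the symptomatic stage. There was no control group, so the comparisons are between kinds of cells inside the same libraries. The labels do not say whether the libraries came from separate animals. The p-values measure only how differences between kinds of cells vary between these libraries, pooled over all kinds tested. That spread may be technical. The title of the study concerns granulocyte colony-stimulating factor (G-CSF), the growth factor of neutrophils, and myeloid cells of this glioma.

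Neutrophils store antimicrobial proteins and proteases in granules that are filled in a fixed order while the cells mature in the bone marrow. Azurophil granules come first, at the promyelocyte stage, specific granules follow at the myelocyte stage and gelatinase granules come last. The RNA of an early granule protein is largely gone once the cell is mature, whereas RNA of late genes persists in circulating cells. Ngp (neutrophilic granule protein), Camp (the cathelicidin CRAMP), Ltf (lactoferrin, an iron binder) and Lcn2 (lipocalin 2, which binds bacterial iron carriers) are proteins of specific granules and were counted as early. Mmp8 (neutrophil collagenase), Mmp9 (gelatinase B), Retnlg (resistin-like gamma) and Wfdc21 (a whey acidic protein domain gene) were counted as late. S100a8 and S100a9 are the subunits of calprotectin, a calcium-binding protein of the neutrophil cytosol that also signals when released.

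The promoters are shown for 5 members: Ngp, Camp and Ltf, which were found together in a handful of cells, and S100a8 and S100a9, the pair at the highest counts. They are the 250 bases before the RefSeq start of each gene (GRCm38.p6), 5′ to 3′ on the strand of the gene, with matches to TTGCNNAA on either strand in capitals. These letters are those of sites of the C/EBP family, which includes regulators of granulocyte maturation. The windows are chr9:110419558-110419807 on the plus strand for Ngp, chr9:109849457-109849706 on the minus strand for Camp, chr9:111019042-111019291 (plus) for Ltf, chr3:90668821-90669070 (plus) for S100a8 and chr3:90695722-90695971 (minus) for S100a9.
Ngp: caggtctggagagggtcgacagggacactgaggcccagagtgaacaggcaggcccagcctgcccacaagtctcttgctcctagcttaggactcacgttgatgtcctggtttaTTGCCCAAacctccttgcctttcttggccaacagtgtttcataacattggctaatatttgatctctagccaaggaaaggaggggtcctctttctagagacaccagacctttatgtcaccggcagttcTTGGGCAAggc
Camp: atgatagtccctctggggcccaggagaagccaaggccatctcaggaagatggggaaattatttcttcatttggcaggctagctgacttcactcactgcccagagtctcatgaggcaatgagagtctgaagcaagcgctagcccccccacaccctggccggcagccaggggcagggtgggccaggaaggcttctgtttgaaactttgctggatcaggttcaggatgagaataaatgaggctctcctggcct
Ltf: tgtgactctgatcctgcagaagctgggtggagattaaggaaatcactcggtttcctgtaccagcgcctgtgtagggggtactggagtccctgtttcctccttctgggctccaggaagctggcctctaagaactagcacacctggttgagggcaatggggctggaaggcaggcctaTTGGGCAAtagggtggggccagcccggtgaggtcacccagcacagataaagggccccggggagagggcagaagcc
S100a8: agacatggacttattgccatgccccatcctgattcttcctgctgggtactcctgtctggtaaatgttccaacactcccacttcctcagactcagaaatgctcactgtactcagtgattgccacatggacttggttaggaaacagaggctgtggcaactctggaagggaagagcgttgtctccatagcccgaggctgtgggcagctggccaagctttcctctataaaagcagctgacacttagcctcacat
S100a9: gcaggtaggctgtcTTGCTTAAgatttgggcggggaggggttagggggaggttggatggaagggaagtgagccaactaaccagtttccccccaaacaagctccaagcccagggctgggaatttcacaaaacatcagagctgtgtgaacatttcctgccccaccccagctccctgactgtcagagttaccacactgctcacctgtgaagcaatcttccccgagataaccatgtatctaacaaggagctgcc

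RefSeq promoter entries, 250 bases before to 50 after the start, were found for 8 of the 10 members, and none was at hand for Wfdc21 and Mmp9. TTGCNNAA was found in 6 of the 8 (Ngp, Ltf, Lcn2, S100a9, Mmp8 and Retnlg), and in 10.8% of all 32851 promoters. In Ngp the matches began 138 and 11 bases before the start, and in Ltf 75 bases before it. The looser TTNNGNAA, which overlaps with it, was found in 7 of 8 members and 40.7% of all promoters. GAGGAA, letters of PU.1 sites, was in 4 of 8 against 28.3%, AATC in 6 of 8 against 73.1%, a loose NF-κB motif (GGG, any 5 bases, CC) in 3 of 8 against 50.8%, CCGCCC in 2 of 8 against 35.7% and TGANTCA in 0 of 8 against 7.81%. These motifs were searched on both strands, and a match describes letters, not binding. The genes themselves lie at chr9:110419747-110423012 (Ngp), chr9:109847379-109849617 (Camp), chr9:111019271-111042767 (Ltf), chr3:90668978-90670035 (S100a8), chr3:90692632-90695721 (S100a9), chr2:32384633-32388252 (Lcn2), chr16:48872621-48874496 (Retnlg), chr11:83746940-83752642 (Wfdc21), chr9:7558456-7568485 (Mmp8) and chr2:164940780-164955850 (Mmp9) in GENCODE M21 on the same assembly. Their identifiers in the files are ENSMUSG00000032484, ENSMUSG00000038357, ENSMUSG00000032496, ENSMUSG00000056054, ENSMUSG00000056071, ENSMUSG00000026822, ENSMUSG00000022651, ENSMUSG00000051748, ENSMUSG00000005800 and ENSMUSG00000017737, in the same order. S100a8 and S100a9 are thus neighbours on chromosome 3, and Ngp, Camp, Ltf and Mmp8 all lie on chromosome 9.

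The libraries held 2704 and 2266 barcodes, and 63001350 and 58915133 UMIs (unique molecular identifiers, which count RNA molecules). Barcodes with at least 200 genes and at most 15% mitochondrial UMIs were kept, 1740 and 1446. Cells were sorted by gates on raw UMIs: the neutrophil gate (Csf3r, the G-CSF receptor, at 1 or more, C1qa under 5 and Nras under 1000 CPM, the count per 1000000 UMIs), the monocyte gate (Ly6c2 at 1 or more and Lyz2 at 5 or more), the macrophage or microglia gate (C1qa at 5 or more), the basophil gate (Mcpt8), the T cell gate (Cd3e) and the tumour gate (Nras at 1000 CPM or more). Gates can overlap: of the 32 and 34 neutrophil-gate cells, 17 and 16 also passed the monocyte gate. No neutrophil-gate cell was called a doublet. Only 11 of the 1740 and 3 of the 1446 kept cells were called, so a count of 0 in so small a gate says little. None of the 10 barcodes that the libraries share was in the neutrophil gate.

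The 10 genes were concentrated in a few cells. They gave 23364 UMIs in replicate 1 and 17192 in replicate 2, and the neutrophil gate held 79.1% (95% exact binomial interval 78.6 to 79.6) and 64.3% (63.6 to 65.0) of them. That gate held 0.265% and 0.421% of all UMIs. Within it, 3 cells of replicate 1 and 1 cell of replicate 2 with 10 or more Ngp UMIs carried 59.5% and 34.2% of all member UMIs. In replicate 2 another 18.9% (3243 UMIs) lay in the monocyte gate alone, against 15 UMIs in replicate 1. Of these 3243 UMIs, 3238 lay in 1 cell. It held 37 UMIs of Ngp and 4 of Cxcr2, a neutrophil marker, and 0 of Ccr2, a monocyte marker. It missed the neutrophil gate because it had 0 Csf3r UMIs. Macrophages and microglia held 6.88% and 8.78%, barcodes that failed the filter 10.8% and 5.82%, and tumour cells 0.997% and 2.05%, although tumour cells held 83.7% and 85.2% of all UMIs. The gates do not use any member, but intervals cover counting error only.

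**Figure D1:**
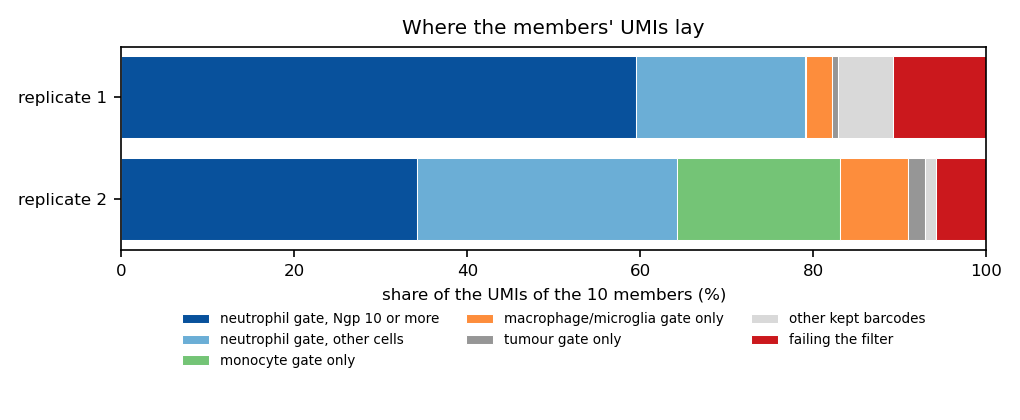
Share of the UMIs of the 10 genes (percent, x axis) in each class of barcodes, as 1 stacked horizontal bar for each of the 2 libraries. The neutrophil gate holds 79.1% of member UMIs in replicate 1 and 64.3% in replicate 2, and cells with 10 or more Ngp UMIs make up much of it.

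The neutrophil gate held 2 kinds of cells, separated by Ccr2, the chemokine receptor of inflammatory monocytes (a split chosen after the values were seen). The 19 cells in each library without a Ccr2 UMI had all 10 neutrophil markers detected, at 8325 and 6177 summed CPM, and summed monocyte markers at 3919 and 702 CPM, with F13a1 and Ms4a4c at 0 besides Ccr2, which the split itself sets to 0. Their median depth was 2384 and 2389 UMIs. The 13 and 15 cells with Ccr2 had a median of 8453 and 11086 UMIs, with neutrophil markers at 503 and 297 summed CPM (Cxcr2, G0s2, Stfa2l1 and Ly6g at 0) and monocyte markers at 18322 and 13819. Member RNA followed the first kind. The cells without Ccr2 had 290759 and 156107 CPM of the 10 genes together, and those with Ccr2 had 87.1 and 885 CPM, from 9 and 158 UMIs. In replicate 2, 144 of the 158 UMIs lay in 1 cell (109 of S100a8 and 27 of S100a9). Cells without Ccr2 as a sum carried the neutrophil markers, but not each of them did. In replicate 2, 1 such cell of 19617 UMIs and 1 of 1278 UMIs had no Cxcr2 and no member UMI, the first had no Malat1, a nuclear RNA of most cells, and the sum held 272 CPM of glioma markers. In replicate 1, 1 such cell of 3558 UMIs had no S100a8 but 39 UMIs of Chil3 and 13 of Lyz2.

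**Figure D2:**
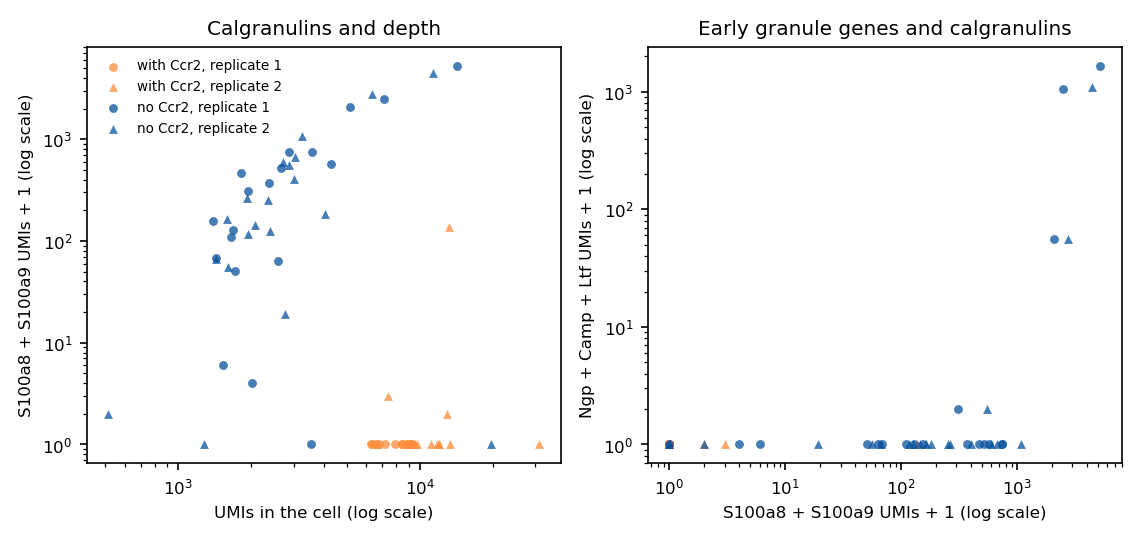
Single cells of the neutrophil gate, plus 1 cell of the monocyte gate of replicate 2 with Ngp, on log axes: S100a8 plus S100a9 UMIs (plus 1) against all UMIs of the cell (left), and Ngp plus Camp plus Ltf UMIs (plus 1) against S100a8 plus S100a9 UMIs (right). Cells with Ccr2 (orange) mostly sit at 0 for S100a8 and S100a9, and the few cells with Ngp, Camp and Ltf stand apart at the top.

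S100a8 stood at 40021 CPM in the neutrophil gate of replicate 1 (6678 UMIs) and 17918 CPM in that of replicate 2 (4449 UMIs), a mean of 28969.5 ± 15629.6 (SD, n = 2 libraries). Its partner S100a9 stood at 44810 and 19408 CPM (32109 ± 17962). Both were higher in replicate 1. The macrophage gate lay far below in each library, at 221 and 192 CPM for S100a8 (206 ± 20.3) and 271 and 249 for S100a9 (260 ± 15.8), so the gates did not overlap. The subunits kept a near-even ratio: S100a8 made up 47.2% (46.4 to 48.0) and 48.0% (47.0 to 49.0) of the S100a8 and S100a9 UMIs in the neutrophil gate. Across the 19 cells without Ccr2 of each library, the 2 subunits had a Pearson r of 0.946 in both (log2 of UMIs per 10000 plus 1). The cells of a library share its preparation and the points share each cell's depth, so this is a description.

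The early genes marked a very small set. Ngp stood at 8139 and 1949 CPM in the neutrophil gate (1358 and 484 UMIs), Camp at 6413 and 1897 CPM (1070 and 471 UMIs) and Ltf at 2110 and 536 CPM (352 and 133 UMIs). All 3 were higher in replicate 1, and in both libraries the UMIs came from the same few cells. Among all barcodes, 3 in replicate 1 and 2 in replicate 2 had 10 or more Ngp UMIs, and 4 in each had 1 to 9. The other 16 and 18 neutrophil-gate cells without Ccr2 held 0 and 1 UMIs of Ngp, 0 and 0 of Camp, and 1 and 0 of Ltf. Across the 19 cells, Ngp and Camp had a Pearson r of 0.982 and 0.970, which rests on the few cells with Ngp.

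The cells with Ngp were also the cells with the most S100a8. In the first of replicate 1, of 14193 UMIs, there were 792 of Ngp, 644 of Camp, 223 of Ltf, 485 of Lcn2, 2575 of S100a8 and 2683 of S100a9. The second held 7080 UMIs, with 522 of Ngp, 420 of Camp, 123 of Ltf, 265 of Lcn2, 1217 of S100a8 and 1290 of S100a9. The cell of replicate 2 held 11332 UMIs, with 483 of Ngp, 471 of Camp, 133 of Ltf, 213 of Lcn2, 2254 of S100a8 and 2186 of S100a9. These 3 cells had all 4 early genes at over 100 UMIs and Retnlg at 17, 12 and 2. The other late genes were not low in them. Wfdc21 was at 123, 42 and 108 UMIs, Mmp8 at 21, 9 and 7, and Mmp9 at 20, 9 and 22. Neutrophil-gate cells without Ccr2 and with under 10 Ngp UMIs held at most 13 (replicate 1) and 8 (replicate 2) of Wfdc21. Their maxima were 6 and 3 for Mmp8, and 14 and 9 for Mmp9.

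A second pattern had Ngp with little Camp and Ltf and much Retnlg. The third cell of replicate 1 held 5119 UMIs, with 44 of Ngp, 6 of Camp, 5 of Ltf, 54 of Lcn2 and 157 of Retnlg, beside 998 of S100a8 and 1084 of S100a9. The second cell with Ngp in replicate 2, of 6311 UMIs, had 37 of Ngp, 18 of Camp, 0 of Ltf, 88 of Lcn2 and 225 of Retnlg, beside 1331 of S100a8 and 1452 of S100a9. That cell passed the monocyte gate, had no Csf3r UMI and is therefore outside the neutrophil gate. Its Ccr2 count was 0, as in the other 4. The 10 genes made up 47.3% to 55.2% of all UMIs in these 5 cells. Csf3r itself was at 0 to 2 UMIs in the 5 cells, against a median of 5 and 5.5 in the other cells without Ccr2, so a gate on Csf3r includes or loses them by single UMIs.

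**Figure D3:**
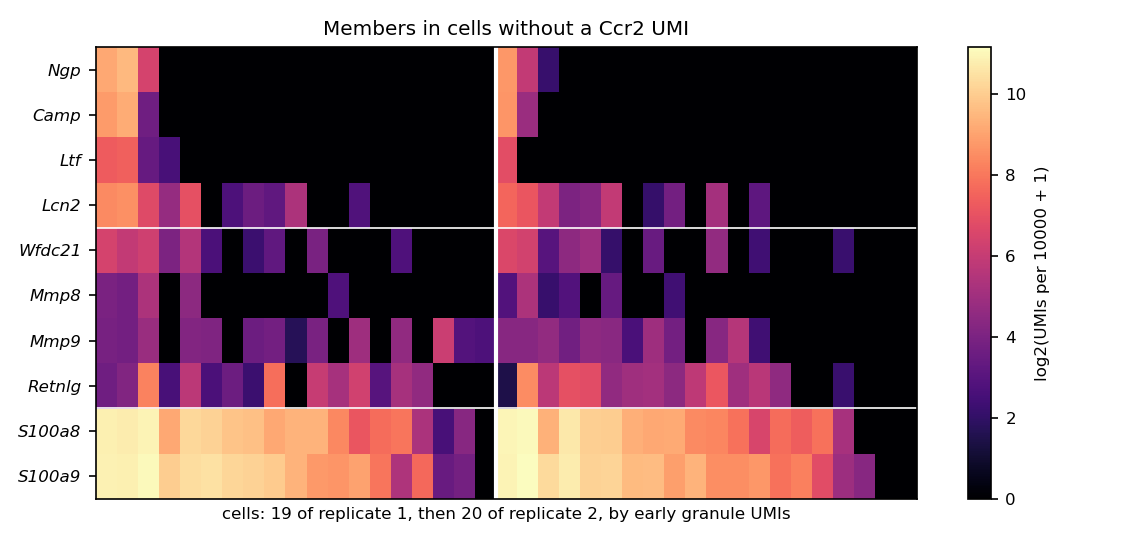
Heat map of the 10 genes (rows) in each cell without Ccr2 (columns), 19 of replicate 1 and 20 of replicate 2, as log2 of UMIs per 10000 plus 1. The cells with Ngp, Camp and Ltf are few, while S100a8 and S100a9 appear in nearly every cell.

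Outside those cells, the neutrophil-gate cells without Ccr2 held the calgranulins, and of the late genes mostly Retnlg and Mmp9. S100a8 was detected in 15 of 16 such cells of replicate 1 (median 75 UMIs, 0 to 352) and in 15 of 18 of replicate 2 (median 61, 0 to 523). S100a9 had a median of 78 (0 to 424) and 99.5 (0 to 559) UMIs. Member RNA made up a median of 9.97% (0.0562 to 28.6) and 7.97% (0 to 35.2) of a cell's UMIs, below the range of the 5 cells with Ngp. Retnlg was found in 12 and 13 of these cells, with medians of 2.5 (0 to 53) and 6.5 (0 to 40) UMIs, and Mmp9 in 11 and 10, with medians of 2 (0 to 14) and 1 (0 to 9). Lcn2 summed to 65 and 58 UMIs in 7 and 8 cells, Wfdc21 to 23 and 28 in 7 and 8 cells, and Mmp8 to 7 in 2 and 4 cells. In the neutrophil-gate cells with 10 or more Ngp UMIs, Lcn2 summed to 804 and 213, Wfdc21 to 204 and 108 and Mmp8 to 50 and 7. Among early genes, Lcn2 was thus the one still counted there.

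Set against each other, early genes made up 84.3% (83.2 to 85.3) of early plus late UMIs in the neutrophil gate of replicate 1 and 76.7% (74.6 to 78.6) in replicate 2, a mean of 80.5%. UMIs count molecules and were not scaled by gene length. The share rested on the cells with Ngp: it was 88.1% and 90.3% in neutrophil-gate cells with 10 or more Ngp UMIs, and 25.9% and 14.5% in cells without Ccr2 and without Ngp. Without the cell with the most early UMIs in each library it was 75.1% and 19.5%. The groups with and without Ngp did not overlap, but Ngp is itself an early gene and defines them. In cells of the neutrophil gate alone, the share was 25.5% and 18.2%, since the 4 cells with Ngp of that gate also passed the monocyte gate.

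Among late genes, Retnlg stood at 1810 and 737 CPM in the neutrophil gate (1273 ± 759, SD, n = 2), Wfdc21 at 1372 and 548 (960.1 ± 583), Mmp9 at 515 and 290 (403 ± 159) and Mmp8 at 384 and 101 (242 ± 200.02). Lcn2 was at 5208 and 1124 CPM (3166 ± 2888). Each was higher in replicate 1, which had more cells with Ngp. Cells with Ccr2, which held few member UMIs, gave 103317 of the 166861 and 178523 of the 248302 UMIs of the gate and lower these CPM. In cells of that gate alone Retnlg stood at 3334 and 3097 CPM, Wfdc21 at 638 and 479, Mmp9 at 1160 and 855, Mmp8 at 203 and 120 and Lcn2 at 1797 and 992. The cells of replicate 2 there include the barcode of 19617 UMIs without members, which lowers its CPM. What the difference between libraries rests on was not tested. Mmp8 was also found in cells with Ccr2. The neutrophil-gate cells with Ccr2 held 7 and 11 Mmp8 UMIs in 4 of 13 and 7 of 15 cells (64.7 ± 4.34 CPM), beside 0 and 112 UMIs of S100a8. Over all barcodes, 16 in replicate 1 and 8 in replicate 2 had Mmp8 and Ccr2 but no S100a8, and 14 and 7 of those were in the monocyte gate. These barcodes were singled out after their values were seen.

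**Figure D4:**
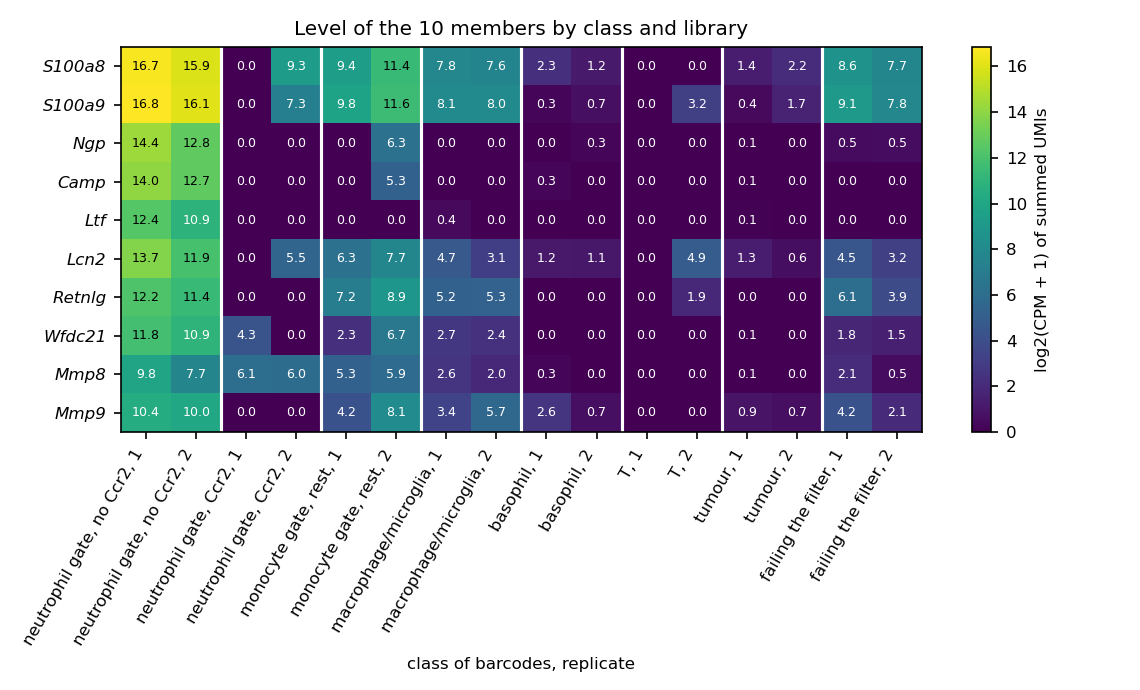
Level of each of the 10 genes (rows) as log2 of CPM plus 1 in 8 classes of barcodes in both libraries (columns). The neutrophil gate without Ccr2 is highest for all 10 genes, and Ngp, Camp and Ltf are near 0 in most other classes.

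For tests, raw counts were summed over cells that passed exactly 1 gate, giving 12 sums (6 gates in 2 libraries), and 6570 genes were tested with edgeR's quasi-likelihood test with Benjamini-Hochberg adjustment. Called genes had an adjusted p under 0.05 and a log2 fold change of 1 or more in either direction. The neutrophil sums held 15 and 18 cells and leave out the 4 cells with Ngp that also pass the monocyte gate. Ngp, Camp and Ltf, at 1, 0 and 1 UMIs there, did not pass the filter on low counts, so 7 of the 10 members were tested. The filter asks for enough counts in at least 2 sums. Outside the neutrophil sums, Lcn2, Mmp9 and Wfdc21 reached that level only in the monocyte sum of replicate 2 (444, 59.2 and 252 CPM). They passed through the neutrophil sums, so finding them higher there is partly set by the filter. The same holds for other genes high only in those sums.

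Against monocyte-gate cells, 5 of the 7 tested members were higher in neutrophil-gate cells and 0 were lower, where 3.88% of all tested genes were called higher and 4.11% lower. Among the 5, Lcn2 and Mmp9 passed the filter only through the neutrophil sums, which favours this direction. Without the filter, 6 of 10 members were called higher and 0 lower. Mmp9 stood at 1159.7 and 855 CPM in the neutrophil sums against 0 and 59.2 in the monocyte sums (log2 fold change 4.72 ± 0.52 SE, edgeR adjusted p = 2.09e-06). Retnlg stood at 3334 and 3097 against 0 and 1109.7 CPM (2.76 ± 0.54, edgeR adjusted p = 0.002). For both genes the groups did not overlap. S100a9 was at 61462 and 44587 against 0 and 7161 CPM (5.16 ± 1.22, edgeR adjusted p = 0.00889). S100a8 was at 48329 and 35639 against 13.3 and 6564 CPM (4.50 ± 1.09, edgeR adjusted p = 0.0106). Lcn2 was at 1797 and 992 against 19.99 and 444 CPM (2.19 ± 0.54, edgeR adjusted p = 0.0123). Here too each neutrophil value lay above each monocyte value.

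Wfdc21 (638 and 479 against 0 and 252 CPM, log2 difference 1.92 ± 0.62, edgeR adjusted p = 0.0642) and Mmp8 (203 and 120 against 66.6 and 133 CPM, 0.45 ± 0.69, edgeR adjusted p = 0.759) were not called, and the groups overlapped for Mmp8. The monocyte level rests largely on 1 cell of replicate 2, the one with Ngp and no Csf3r, which held 1331 of the 1333 S100a8 UMIs of both monocyte sums, all 1452 of S100a9, all 225 of Retnlg, all 12 of Mmp9, 88 of the 93 of Lcn2, 50 of the 51 of Wfdc21 and 25 of the 37 of Mmp8. With DESeq2 2 members were called, S100a8 and Mmp9, and without the library block 3 were, Lcn2, Retnlg and Mmp9 (edgeR adjusted p = 0.0666 for S100a8 and 0.0857 for S100a9). With Csf3r at 2 or more UMIs, 4 were higher and 3 lower: Ngp, Camp and Ltf, since 3 of the 4 cells with Ngp have 1 Csf3r UMI and then count as monocytes.

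Against macrophage or microglia cells, 7 of 7 members were higher in neutrophil-gate cells, where 8.05% of all genes were called higher and 9.89% lower. Lcn2, Mmp9 and Wfdc21 passed the filter only through the neutrophil sums, so the 7 of 7 is partly set by the filter. Without it, 7 of 10 members were called higher and 0 lower. S100a8 stood at 48329 and 35639 against 125 and 225 CPM (7.85 ± 1.18, edgeR adjusted p = 3.81e-05), and S100a9 at 61462 and 44587 against 139 and 287 CPM (8.06 ± 1.28, edgeR adjusted p = 7.2e-05). The log2 fold changes of the others ran from 5.54 ± 0.89 for Mmp8 to 6.82 ± 0.65 for Lcn2. The groups did not overlap for any of the 7. The median over all tested genes was -0.67, and over the 7 members it was 6.68.

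Against tumour cells, 7 of 7 members were again higher, where 15.5% of all genes were called higher and 17% lower. The same limit from the filter holds here, and without it 7 of 10 members were called higher and 0 lower. S100a8 stood at 1.37 and 3.70 CPM in the tumour sums (14.29 ± 1.49, edgeR adjusted p = 8.87e-08) and Lcn2 at 1.35 and 0.550 CPM (10.29 ± 0.70, edgeR adjusted p = 7.11e-11). Wfdc21, Mmp8 and Retnlg had 3, 2 and 1 UMIs in all tumour cells of that gate alone, so their pooled CPM ratios are given with counting intervals: 16760.2 (5415 to 84009) for Wfdc21, 7039 (1617 to 63816) for Mmp8 and 297661 (53013 to 11796200) for Retnlg. The comparisons with monocytes, macrophages and tumour cells share the neutrophil sums.

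Between monocyte-gate and macrophage cells, 5 of 7 members were higher in monocytes and 0 lower, where 8.34% of all genes were called higher and 10.3% lower. Mmp8 was at 66.6 and 133 against 2.24 and 3.01 CPM (log2 fold change 5.09 ± 0.67), higher in both libraries. The other 4 were Lcn2 (19.99 and 444 against 15.2 and 3.87 CPM, 4.63 ± 0.68), Wfdc21 (0 and 252 against 6.26 and 5.16, 4.31 ± 0.70), Retnlg (0 and 1109.7 against 13.9 and 46.0, 3.89 ± 0.59) and S100a8 (13.3 and 6564 against 125 and 225, 3.35 ± 1.06, edgeR adjusted p = 0.0266). For S100a8, Wfdc21 and Retnlg the monocyte value of replicate 1 lay below the macrophage value, and Lcn2 was nearly level there. S100a9 (2.90 ± 1.17, edgeR adjusted p = 0.0878) and Mmp9 (1.96 ± 0.78, edgeR adjusted p = 0.0849) were not called. The monocyte values of replicate 2 rest on the cell with Ngp named above.

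**Figure D5:**
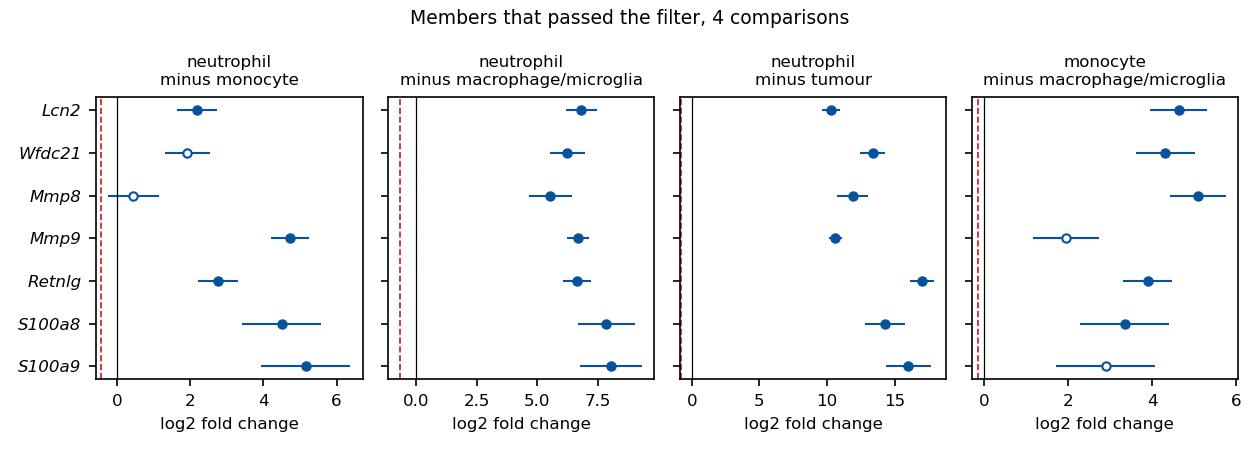
Log2 fold change (x axis, ± SE) of the 7 tested members in the 4 comparisons between gates, with filled points for called genes and open points for genes not called. The dashed red line is the median of all 6570 tested genes, and the members lie to the right of it in each comparison.

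Other genes of the granule programme were counted from lists chosen with earlier results of these data known, and are given for the comparison with monocytes (median of all tested genes, -0.44). Of 16 mature neutrophil genes 12 were higher and 0 lower, with a median of 2.91. Among them, G0s2, an inhibitor of lipolysis, was at 5131 and 2276 against 0 and 14.8 CPM (8.49 ± 0.43, edgeR adjusted p = 5e-11), Cxcr2, the chemokine receptor of neutrophils, at 1276 and 975 against 0 and 19.7 CPM (6.45 ± 0.51), and Hdc, the histamine-forming enzyme, at 1305 and 873 against 19.99 and 14.8 CPM (5.81 ± 0.55). Stfa2l1, a stefin-like protease inhibitor, had 59 UMIs against 0. Ly6g, the marker of mouse neutrophils, was at 58.0 and 103 against 0 and 4.93 CPM (4.79 ± 1.72, edgeR adjusted p = 0.0965), and Ccrl2 (1.57) and Ifitm2 (0.12) were among those not called.

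Of 14 other specific and gelatinase granule genes, 12 were tested, 5 were higher and 2 lower, with a median of 0.02. The higher ones included Slpi, a protease inhibitor (1449.6 and 2139 against 179.9 and 247 CPM, 2.96 ± 0.30), Pglyrp1, which binds bacterial cell walls (2.93 ± 0.36), and Adam8 (2.24 ± 0.54). Cybb, the oxidase subunit of phagocytes (145 and 17.1 against 926 and 710.2 CPM, -3.76 ± 0.47), and Chil3 (1131 and 17.1 against 2085 and 2836 CPM, -2.76 ± 0.57) were lower. In replicate 1 the Chil3 value of the neutrophil sum came from 39 UMIs of 1 cell without S100a8. The 4 cells with Ngp that the neutrophil sums leave out held 121, 53 and 0 Chil3 UMIs in replicate 1 and 32 in replicate 2. Of 8 azurophil granule genes, the earliest class, 2 were tested and neither was called. Prtn3, proteinase 3, had 1 UMI in the neutrophil sums against 36 in the monocyte sums (edgeR adjusted p = 0.16), and Mpo, Elane, Ctsg, Prss57, Ms4a3 and Bpi did not pass the filter on low counts.

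Of 20 partners, receptors and inhibitors of the members, 11 were tested, 2 were higher and 3 lower (median 0.54). S100a11 (2870.1 and 3679 against 1166 and 1282 CPM, 1.28 ± 0.33), another S100 protein, and Wfdc17 (5421 and 2104 against 866 and 1371 CPM, 1.46 ± 0.31) were higher. S100a4 had 0 UMIs in the neutrophil sums against 899 in the monocyte sums, Lrp1, an uptake receptor, 0 against 70, and S100a10 was lower by fold change (-3.10 ± 0.43). Tlr4, a receptor of S100a8 and S100a9, had 7 UMIs against 5 (2.28 ± 0.98, edgeR adjusted p = 0.166), and Timp2, an inhibitor of metalloproteinases, 18 against 14 (2.12 ± 0.68, edgeR adjusted p = 0.0575). Neither was called. Of 11 transcription factors of granulocyte formation, 9 were tested, 4 were higher (Mxd1 3.47 ± 0.32, Cebpd 2.02 ± 0.33, Junb 1.67 ± 0.35, and Klf5 with 5 UMIs against 0) and Cebpa, with 0 UMIs against 41, was lower. Cebpe and Gfi1, which act at the granule-forming stages, did not pass the filter in these sums, where the neutrophil side leaves out the 4 cells with Ngp. Cebpe was counted in cells with Ngp, at 10, 8 and 0 UMIs in the 3 of replicate 1 and 4 and 3 in the 2 of replicate 2. Neutrophil-gate cells without Ccr2 and with under 10 Ngp UMIs held at most 1 and 0.

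Markers of other cell types were counted in the same sums. All 8 monocyte markers were lower in the neutrophil sums, as were 4 of 6 tested dendritic cell markers, and 8 of 10 neutrophil markers were higher. The neutrophil sums leave out cells that also pass the monocyte gate, among them all 13 and 15 neutrophil-gate cells with Ccr2. The low monocyte markers are thus partly set by the gates. Cdkn2a, a glioma marker, was higher, from 14 UMIs in replicate 2 and 0 in replicate 1 against 2 in the monocyte sums. The part of these cells in the results was not tested. The barcode of 19617 UMIs without Malat1 and without members is part of the neutrophil sum of replicate 2, which holds 58447 UMIs with it and 38830 without it, so it lowers each CPM of that sum. With cells limited to those with a Malat1 UMI, which leaves it out, 6 of 7 members were higher than in monocytes, the sixth being Wfdc21 (2.24, edgeR adjusted p = 0.0178).

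The genes most like the summed members over the 12 sums, by Pearson correlation of log2 of CPM plus 1 among 6556 genes, were Irf2bp2 (0.977), Il1rn (0.973), Oasl2 (0.960), Lrg1 (0.957), Rhov (0.947), Trem3 (0.946), Oas2 (0.945), Chil1 (0.939), 1600010M07Rik (0.938) and Plekho2 (0.934). The sums of a library share its preparation, and the values are a description. Lrg1, a secreted glycoprotein, stood at 1073 and 1283 CPM in the neutrophil sums, 6.66 and 39.5 in the monocyte sums and 19.7 and 19.4 in the macrophage sums. Il1rn, the interleukin 1 receptor antagonist, stood at 1363 and 958, 73.3 and 335, and 51.9 and 56.8 CPM. Irf2bp2, a transcriptional corepressor, was nearly level in those 3 gates (232 and 239.5, 167 and 222, and 161 and 161 CPM).

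In the macrophage gate member RNA came mostly from few barcodes, while in tumour cells of replicate 1 it was spread thinly over many. In the macrophage gate S100a8 was found in 10 of 262 and 8 of 236 cells, 3.82% and 3.39%, and the top 3 barcodes held 90.8% and 91.0% of its UMIs. Those barcodes also held neutrophil RNA: 10, 12 and 16 UMIs of Csf3r and 4, 3 and 8 of Cxcr2 in replicate 1. In replicate 2 they held 9, 5 and 18 of Csf3r and 6, 3 and 2 of Cxcr2. Of those in replicate 1, 1 barcode of 2154 UMIs had only 6 C1qa UMIs. The source of their member RNA was not tested. Of Mmp9, 123 of 141 UMIs in that gate of replicate 2 lay in 1 barcode. Ngp and Camp were at 0 in the macrophage gate of both libraries, so a share of cells with an Ngp UMI of up to 1.15% and 1.27% is allowed by a count of 0. Retnlg was at 36.8 and 39.0 CPM there (37.9 ± 1.56, SD, n = 2). In T cells, which should lack these genes, S100a8 had 0 UMIs in 33 and 36 cells (median 4312 and 6800 UMIs), which allows up to 9.09% and 8.33% and so sets no finer background. In replicate 2, 1 T-gate cell held 3 UMIs of S100a9, 11 of Lcn2 and 1 of Retnlg.

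In the tumour gate S100a8 was found in 67 of 1080 cells (6.20%, 84 UMIs) and 52 of 901 (174 UMIs), at medians of 41913.5 and 47352 UMIs per cell. In replicate 2, 108 of the 174 UMIs lay in 1 barcode of 83780 UMIs, which also held 9 UMIs of Csf3r and 5 of Cxcr2. With each cell thinned to 1000 UMIs, the shares of cells with S100a8 were 0.159% and 0.245% in the tumour gate against 1.98% and 2.01% in the macrophage gate. The basophil gate of replicate 1 held 19 S100a8 UMIs, but 75 of its 155 cells also passed the tumour gate and its summed glioma markers (594 CPM) exceeded its basophil markers (463 CPM). In the 76 cells of the basophil gate alone, at a median of 3152.5 UMIs, S100a8 had 2 UMIs. The 2 subunits were uneven in tumour cells: S100a8 was 81.6% (72.7 to 88.5) of S100a8 plus S100a9 UMIs in replicate 1 and 60.4% (54.5 to 66.1) in replicate 2, or 73.3% (63.0 to 82.1) without that barcode. These intervals lie above those of the neutrophil gate. Lcn2 had 73 UMIs in tumour cells of replicate 1, 33 of them in 1 cell, and 28 in replicate 2, and Mmp9 had 46 and 32. Ngp had 2 and 1.

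Barcodes that failed the filter held mostly calgranulins, with Retnlg the highest late gene. S100a8 had 948 UMIs in 22 barcodes of replicate 1 and 452 in 7 of replicate 2, and the top 3 barcodes held 74.5% and 99.1% of them. S100a9 had 1308 and 487 UMIs, Retnlg 158 and 31, Lcn2 52 and 18 and Mmp9 43 and 7. Ngp had 1 and 1 UMI, and Camp and Ltf had 0 in both libraries. Early genes were 19.8% and 30.6% of early plus late UMIs there, and Lcn2 gave 52 of the 53 and 18 of the 19 early UMIs. The share was 84.3% and 76.7% in the neutrophil gate, which rested on the cells with Ngp. In neutrophil-gate cells without Ccr2 and without Ngp it was 25.9% and 14.5%, above that of the failing barcodes in replicate 1 and below it in replicate 2. Of their member UMIs 2523 of 2524 and 999 of 1001 lay in barcodes that failed for the mitochondrial share. Of the barcodes with 50 or more S100a8 UMIs, 12 of 21 in replicate 1 and 12 of 19 in replicate 2 were in the neutrophil gate, and 4 and 2 had failed the filter. The failing ones held 9686, 16683, 4233 and 10542 UMIs in replicate 1, 3 of them with 70, 284 and 112 UMIs of the macrophage gene C1qa, and 4723 and 5677 UMIs in replicate 2, both without C1qa.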

How the data were processed

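Single-cell RNA was measured by droplet sequencing in 2 libraries of 1 group. The deposited files give raw counts, with no normalization. Per the labels, the authors used Cell Ranger 3.1, with alignment to mm10 by STAR and counting of UMIs for each gene and barcode. The labels also mention runs brought to equal depth, but the deposited files hold whole counts per library with different totals, and were used unchanged. Which gene annotation was used is not given in the sources used here.

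Barcodes with at least 200 genes and at most 15% mitochondrial UMIs were kept, and gates were applied to raw counts as the report gives them. CPM divides a gene's count by all UMIs of that class and library and multiplies by 1000000. Each mean ± SD is over both libraries, intervals are exact binomial at 95%, a count of 0 is given with a floor of 3 counts, and both cover counting error only. Thinned shares are expectations at 1000 UMIs per cell. Doublets were called with scrublet in scanpy 1.11.5 and left in. Kept cells numbered 1740 and 1446, with medians of 32091 and 35769 UMIs. Python 3.11.15, numpy 2.4.6, scipy 1.17.1, pandas 2.3.3 and matplotlib 3.10.9 were used.

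Sums of raw counts over cells in exactly 1 gate entered edgeR 4.0.16 (R 4.3.3; quasi-likelihood test, TMM factors, filterByExpr, the library as a block because the sums of a library share its preparation, 5 residual degrees of freedom, Benjamini-Hochberg adjustment over 6570 genes). The script was tested on simulated counts. The alternatives were DESeq2 1.42.0, RLE factors, no filter on low counts, no block, overlapping gates kept, doublets left out, other cell filters, stricter Csf3r gates and each library alone. Another 3 were chosen after seeing the data: the neutrophil gate without Ccr2, the monocyte gate without its top member barcode, and the macrophage gate without its top 3. The members' own counts or Ccr2 chose these cells, so the direction in which member values move is set by the choice and nothing is read from it. The genes named are all members, the 10 genes most correlated with their sum, and from each list up to 4 called and 4 not called in the comparison with monocytes. The members and lists were chosen with earlier results of these data known. Of the genes this naming rule selects, 1 is not reported here. No protein sequences were used here.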

Additional observations from a re-analysis of the deposited data

How the results depend on the processing

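The values moved with which cells were counted. The member share in the neutrophil gate, 71.7% on average, was 29.5% with Csf3r at 2 or more UMIs, 24.2% with Csf3r at 500 CPM or more and 23.2% in cells of exactly 1 gate. The early share, 80.5%, was 24.0%, 22.9% and 21.8% under the same settings, 86.9% with Wfdc21 counted as early and 47.3% without the cell with the most early UMIs in each library. Genes called against monocytes, 525, numbered 142 with overlapping gates kept, 889 with Malat1 required, 1035 with Csf3r at 2 or more UMIs and 1020 with Csf3r at 500 CPM or more. Against tumour cells, 2135 genes became 4474 with overlapping gates kept. These settings change which cells enter the sums.

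Of 392 member fold changes with a test under alternatives, 350 kept their direction and their side of the threshold, 13 were no longer called, 19 became called and 10 reversed. These include the 3 alternatives chosen after seeing the data, where the choice of cells fixes the direction. Against monocytes, Lcn2 reversed to -0.41 and -0.31 and Wfdc21 to -0.081 and -0.11 with Csf3r at 2 or more UMIs and at 500 CPM or more, and Mmp8 to -0.21 with the latter. Between monocytes and macrophages, without the top monocyte barcode, S100a8 reversed to -5.03, S100a9 to -14.06, Retnlg to -11.20, Wfdc21 to -1.10 and Mmp9 to -9.19. That barcode was picked for its member UMIs and removed from the monocyte side alone, so these reversals follow from the choice. With single libraries, which leave no residual degrees of freedom and so no test, Mmp8 against monocytes ran from -0.15 (without replicate 1) to 1.61, and S100a8 of monocytes against macrophages from -3.23 (without replicate 2) to 4.87. A count of called genes could not be had for single libraries.

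Without the replicate block, that is without the library term, the counts of called genes were 513, 1198, 2124 and 1244, against 525, 1179, 2135 and 1224 with it (neutrophils against monocytes, macrophages and tumour, and monocytes against macrophages). DESeq2 called 349 higher and 198 lower against monocytes, where edgeR called 255 and 270, 700 and 449 against macrophages (529 and 650) and 1350 and 970 against tumour cells (1018 and 1117), and gave no adjusted p for 892 genes against monocytes. The median log2 fold change of all genes against monocytes was -0.44 with TMM and -0.26 with RLE factors. With doublets left out, the calls against tumour cells were 889 higher and 1952 lower. Depth limits the neutrophil sums, which held 34493 and 58447 UMIs.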
